A study of Mus musculus with 2 samples.

Results

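Milk and mammary secretory genes were followed across 2 cerebellar sections from mice injected, by their labels, with mammary tumor organoids. The group holds 10 genes of the 19465 in the count tables, all found in both tables. They were chosen by name for what they encode, with earlier results of these data known. They are the casein genes *Csn1s1*, *Csn2* and *Csn3*, the whey protein genes *Lalba* and *Wap*, the WAP-domain gene *Wfdc18*, the iron-handling defense genes *Ltf* and *Lcn2*, the transporter gene *Slc5a8* and the mucin gene *Muc1*. Both sections came from untreated mice and are labeled genotype HP. By the study's methods this is the genotype of the injected organoids, not of the host mice. HP tumors are grown from mouse mammary tumor organoids with HER2 V777L, a human HER2 transgene that Cre switches on, and PIK3CA H1047R. The sample titles name the organoids HP-F1 +cre in section 1 and HP-B6 +cre in section 2, while the cell line entry reads B6-HP for both. By the study's methods, primary tumors were started with Cre adenovirus. Organoid cells were then labeled with luciferase, selected as clones and injected into the cerebellum of C57BL/6 mice aged 5 months, which keep their immune system. Each section is 1 animal, so nothing is known of the spread between animals given the same organoids, and any difference between sections is given without a test.

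Secretory cells of the mammary gland make milk late in pregnancy and in lactation, when prolactin signals through the kinase JAK2 and the transcription factor STAT5 to switch on casein and whey protein genes. The caseins form micelles, and kappa-casein, the product of *Csn3*, sits on their surface and keeps them in suspension. Alpha-lactalbumin, the product of *Lalba*, takes part in lactose synthesis, and whey acidic protein, from *Wap*, is a major whey protein of rodents. Lactoferrin (*Ltf*) binds iron and is found both in milk and in the secondary granules of neutrophils. Lipocalin 2 (*Lcn2*) binds the siderophores with which bacteria collect iron. It is made by neutrophils, epithelia and glia during inflammation, and by the mammary gland as it involutes after weaning. *Wfdc18* encodes a small secreted protein with a WAP domain. *Slc5a8* encodes a sodium-coupled carrier of short monocarboxylates, and *Muc1* encodes a membrane mucin on the luminal face of secretory epithelia.

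The casein genes lie together on chromosome 5. In the RefSeq annotation of GRCm38.p6, *Csn1s1* spans chr5:87666208-87682578, *Csn2* chr5:87692619-87699429 and *Csn3* chr5:87925579-87932550. All 3 fall within 266343 bases, and 226150 bases separate *Csn2* from *Csn3*. The other members are on chromosomes of their own or far apart: *Wfdc18* at chr11:83709004-83711360 and *Wap* at chr11:6635483-6638654 share chromosome 11, *Ltf* is at chr9:111019292-111042766, *Lcn2* at chr2:32384637-32387739, *Lalba* at chr15:98480400-98482934, *Slc5a8* at chr10:88885992-88929515 and *Muc1* at chr3:89229056-89233381. The table of promoters held 9 of the 10 members (*Csn3* is not listed). The 250 bases before the start of transcription were searched for TTCNNNGAA, the form of site that STAT proteins bind. The motif reads the same on both strands. It was found in 2 of the 9 promoters, those of *Csn1s1* and *Csn2*, where it began 100 and 93 bases before the start, and in 7.02% of the 32851 promoters of this length in the table. The promoters below are of 2 casein genes with at most 56 UMIs in any region (*Csn1s1*, chr5:87665958-87666207 (+ strand), and *Csn2*, chr5:87699426-87699675 (- strand)). They are set beside 3 genes that were high together in the tumor of section 2 (*Wfdc18*, chr11:83708754-83709003 (+ strand), *Ltf*, chr9:111019042-111019291 (+ strand), and *Slc5a8*, chr10:88885742-88885991 (+ strand)). They are read 5′ to 3′ along the gene, from RefSeq on GRCm38.p6, and capitals mark the motif.
Csn1s1: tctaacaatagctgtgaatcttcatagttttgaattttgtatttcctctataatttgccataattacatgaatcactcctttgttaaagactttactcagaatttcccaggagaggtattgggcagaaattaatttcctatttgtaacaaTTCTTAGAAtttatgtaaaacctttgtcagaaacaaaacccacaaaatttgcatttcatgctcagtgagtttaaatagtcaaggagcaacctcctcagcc
Csn2: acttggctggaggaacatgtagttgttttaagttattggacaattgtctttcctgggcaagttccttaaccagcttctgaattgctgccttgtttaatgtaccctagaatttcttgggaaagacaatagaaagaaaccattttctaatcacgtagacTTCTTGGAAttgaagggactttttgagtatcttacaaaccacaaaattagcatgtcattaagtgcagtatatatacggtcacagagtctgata
Wfdc18: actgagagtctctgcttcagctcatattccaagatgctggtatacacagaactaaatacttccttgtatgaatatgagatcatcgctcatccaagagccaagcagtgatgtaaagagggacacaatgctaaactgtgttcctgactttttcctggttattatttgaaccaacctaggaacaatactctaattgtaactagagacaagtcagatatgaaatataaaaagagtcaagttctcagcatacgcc
Ltf: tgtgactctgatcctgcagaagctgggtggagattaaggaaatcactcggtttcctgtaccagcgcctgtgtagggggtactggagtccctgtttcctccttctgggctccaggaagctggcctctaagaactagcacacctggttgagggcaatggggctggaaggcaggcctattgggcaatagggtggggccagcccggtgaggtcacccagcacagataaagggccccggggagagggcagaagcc
Slc5a8: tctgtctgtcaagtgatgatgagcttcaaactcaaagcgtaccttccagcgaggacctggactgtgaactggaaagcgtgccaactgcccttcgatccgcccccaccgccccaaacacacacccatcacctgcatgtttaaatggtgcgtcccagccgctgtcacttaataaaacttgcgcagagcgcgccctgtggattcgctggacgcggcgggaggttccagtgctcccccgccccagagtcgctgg
A match in these letters is a description of the sequence and does not show that a factor binds there.

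Transcripts in the fixed tissue were read with mouse probes (Visium CytAssist), counted as unique molecular identifiers (UMIs) on an array of spots. A spot is a small patch of tissue that can hold several cells. Section 1 gave 63986887 UMIs from 3406 spots under tissue, and section 2 gave 71878333 from 4017. Spots were sorted by the share of UMIs from neural genes, none of them a member. Connected groups of neural-poor spots were called tumor (773 spots in section 1 and 840 in section 2), spots up to 4 array steps outside were called edge (250 and 430), and neural spots farther out were called neural (2286 and 2678). Tumor spots were deeper than neural spots, with medians of 54112 and 41020.5 UMIs against 7438.5 and 9592.5. Levels are therefore given as CPM, the count scaled to a total of 1000000, after TMM scaling of the 6 sums of UMIs, 1 for each section and region. In such sums, fewer cells of a type and less RNA per cell cannot be told apart. Each gene has its own probes, so levels are compared between regions of 1 gene and not between genes.

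The label of a mammary tumor was checked against 9 epithelial markers, which were high in section 2 and low in section 1. Their summed level was 12047 CPM in the tumor of section 2, against 2721 CPM at its edge and 208 CPM in its neural spots. In the tumor of section 1 it was 52.0 CPM, against 37.4 CPM and 25.4 CPM. The highest single marker there, *Krt8*, reached 24.9 CPM, against 4.21 CPM in neural spots. *Epcam* (7.06 against 2.98 CPM) and *Cdh1* (7.56 against 3.85 CPM) were also higher than in neural spots. *Cldn3*, *Cldn7*, *Krt19*, *Esrp1* and *Elf3* were lower. The neural-poor region of section 1 instead held 60904 CPM of 7 fibroblast markers, such as the collagen genes *Col1a1* and *Col1a2*, where that of section 2 held 676 CPM. Some other genes of mammary epithelium, added after their values were seen, were higher in that region than in neural spots of section 1. The luminal factor gene *Gata3* had 58.0 against 9.30 CPM, the estrogen receptor gene *Esr1* 34.7 against 8.02 CPM and mouse *Erbb2* 18.0 against 5.13 CPM. In section 2 they had 81.4, 18.6 and 59.3 CPM in the tumor. Which cells of the section 1 region made these transcripts was not tested. Other epithelial genes did not rise in this way in section 1. *Ehf* had 5.47 against 4.67 CPM in neural spots, *Tfcp2l1* 1.08 against 2.66 CPM and *Elf5* 1.61 against 2.89 CPM. In section 1 the low sum of the epithelial markers thus went against the label, and the genes added later went both ways. That region is called tumor here only because its spots were neural-poor and formed a connected group of at least 50 spots. CPM levels are given for each section on its own. The tested fold changes use both sections, and take this region and the tumor of section 2 as replicates.

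The members fell into 3 patterns. *Wfdc18*, *Ltf*, *Csn3* and *Slc5a8* were high in the tumor of section 2 and at 0.50 to 4.18 CPM everywhere in section 1. *Csn1s1*, *Csn2*, *Lalba*, *Wap* and *Muc1* were at most 4.87 CPM in every region of both sections. *Lcn2* was the member high in both sections. Of the 3 regions its CPM was highest at the edge in both, although its peak by distance lay just beyond the edge, in spots counted as neural, and per spot the tumor of section 2 held 1.10 times the UMIs of its edge.

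**Figure D1:**
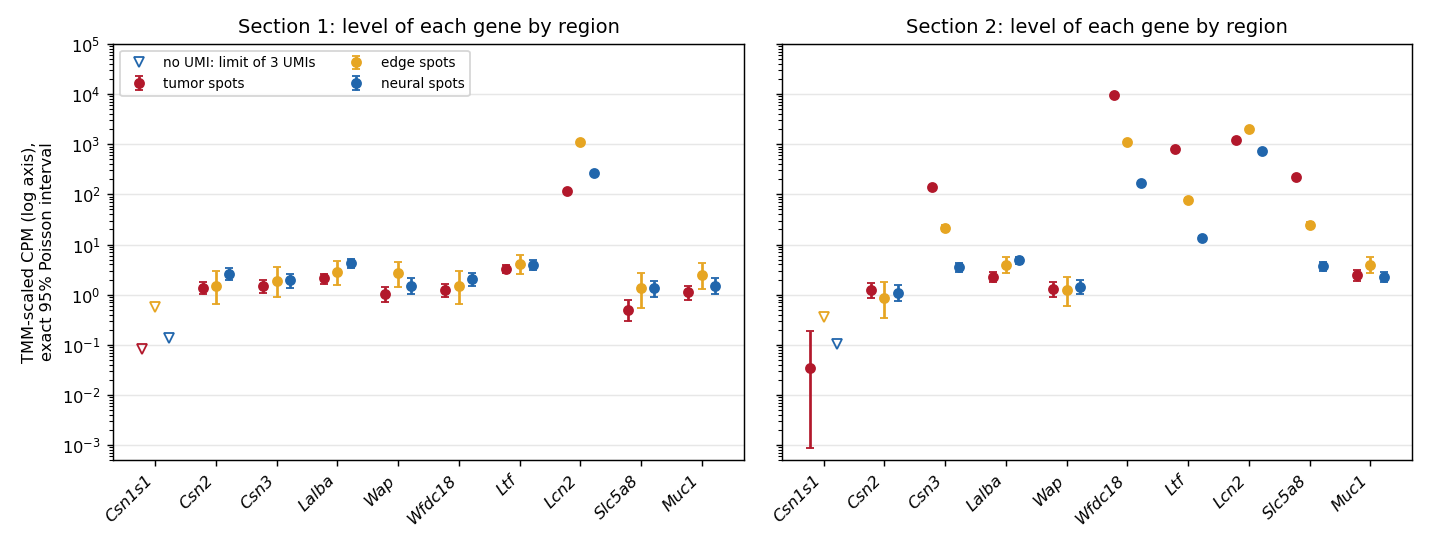
Levels of the 10 genes in tumor, edge and neural spots of section 1 (left) and section 2 (right), in TMM-scaled CPM on a log axis; bars are exact 95% Poisson intervals of the count, and open triangles are the limit of 3 UMIs where no UMI was counted. *Wfdc18*, *Ltf*, *Csn3* and *Slc5a8* stand at 9648, 798, 141 and 223 CPM in the tumor of section 2 and at 0.50 to 4.18 CPM in all regions of section 1.

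Of the caseins, *Csn3* was high in section 2 and the other 2 were not. *Csn1s1* gave 1 UMI in the tumor of section 2 and none in the other 5 sums. The other members low in both sections (*Csn2*, *Lalba*, *Wap* and *Muc1*) still had 0.86 to 4.87 CPM in every sum. Whether the probes could read *Csn1s1* in this tissue was not tested. The upper end of the exact 95% Poisson interval for a count of 0 was 0.103 CPM in the tumor of section 1 and 0.700 CPM at its edge. *Csn2* had 1.39, 1.52 and 2.57 CPM in the tumor, edge and neural spots of section 1 and 1.24, 0.86 and 1.10 CPM in those of section 2. These are levels of 7 to 56 UMIs in a whole region, and the tumor of section 2 did not stand above its neural spots (ratio 1.13, 95% counting interval 0.683 to 1.88). *Csn3* had 141 CPM in the tumor of section 2 (interval 136 to 145), 21.5 CPM at the edge and 3.5 CPM in neural spots. In section 1 it had 1.47, 1.90 and 1.92 CPM, with intervals that overlap. The tumor of section 2 thus held 40.2 times the *Csn3* level of its neural spots (33 to 49.4), and that of section 1 held 0.765 times (0.501 to 1.18).

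Of the whey protein genes, neither *Lalba* nor *Wap* was higher in tumor than in neural spots. *Lalba* had 2.11, 2.85 and 4.26 CPM in the tumor, edge and neural spots of section 1 and 2.28, 3.91 and 4.87 CPM in those of section 2. The order of the regions was the same in both sections, with the tumor lowest, although the edge overlapped each of its neighbors in their counting intervals. It was the member that passed the test of tumor against neural, with a log2 fold change of -1.05 (SE 0.23, adjusted p = 0.032, edgeR's quasi-likelihood test with Benjamini-Hochberg adjustment). Its counts were 15 to 142 UMIs in a whole region. At a like level the neutrophil gene *Elane* was also called lower (adjusted p = 0.044, edgeR's quasi-likelihood test). It had 1.67 and 1.07 CPM in the tumors, against 2.75 and 2.30 CPM in neural spots. *Wap* and *Muc1*, as low, were not called. Whether counts this low come from *Lalba* transcripts was not tested. Without the section as a block the adjusted p of *Lalba* was 0.065. Counted per spot the direction turned, since the deep tumor spots held 0.0983 and 0.0786 UMIs of *Lalba* per spot in sections 1 and 2, and the neural spots 0.0407 and 0.0530. *Wap* had 1.03, 2.66 and 1.51 CPM in section 1 and 1.28, 1.22 and 1.44 CPM in section 2, at 10 to 42 UMIs per region.

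*Wfdc18* showed the widest gap between the sections. In the tumor of section 2 it had 9648 CPM from 279693 UMIs, or 333 UMIs in the average spot. Its edge had 1112 CPM and its neural spots 168 CPM. In section 1 the same gene gave 44 UMIs over the 773 tumor spots, never more than 1 in a spot, and 1.22, 1.52 and 2.06 CPM by region. The tumor level of section 2 was 7891 times that of section 1 (counting interval 5878 to 10860.1). Within section 2 the tumor held 57.5 times the level of neural spots (55.9 to 59.2), and within section 1 it held 0.593 times (0.382 to 0.919).

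*Ltf* followed the same course at other levels. It had 798, 78 and 13.7 CPM in the tumor, edge and neural spots of section 2, and 3.25, 4.18 and 3.94 CPM in those of section 1. The regions of section 1 overlapped in their counting intervals, and those of section 2 were far apart. The tumor to neural ratio was 58.1 in section 2 (52.7 to 64.3) and 0.825 in section 1 (0.619 to 1.10). *Slc5a8* had 223, 24.7 and 3.67 CPM in section 2 and 0.50, 1.33 and 1.33 CPM in section 1, so that the tumor was highest in section 2 and lowest in section 1. Its ratios were 60.6 (50.1 to 74.1) and 0.377 (0.197 to 0.701). *Muc1*, the other gene of the cell surface, had 2.41 CPM in the tumor of section 2, against 3.91 CPM at its edge and 2.27 CPM in neural spots. In section 1 it had 1.11, 2.47 and 1.51 CPM, and the edge was highest in both sections. The edge of section 1 held 13 UMIs of *Muc1*, and its ratio to neural spots was 1.63, with an interval that includes 1 (0.788 to 3.19). In section 2 this ratio was 1.73 (1.10 to 2.67).

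Across both sections, 1 of the 9 members tested was called in tumor against neural, where 30.5% of all 19233 genes tested were called (14.4% higher and 16.2% lower). *Csn1s1* did not pass the filter on low counts. The fold changes of *Wfdc18* (2.84, SE 2.04, adjusted p = 0.32), *Ltf* (3.16, SE 1.85, adjusted p = 0.24), *Csn3* (2.73, SE 1.68, adjusted p = 0.26) and *Slc5a8* (3.04, SE 2.28, adjusted p = 0.34), on the log2 scale by edgeR's quasi-likelihood test, were not called. Each was above neural spots in the tumor of section 2. In section 1 the CPM of *Wfdc18* and *Slc5a8* was below neural spots, and the intervals of *Ltf* and *Csn3* include a ratio of 1. Counted per spot, the deep tumor spots of section 1 held more than its neural spots, at 2.89 times for *Wfdc18*, 4.02 times for *Ltf*, 3.73 times for *Csn3* and 1.84 times for *Slc5a8*. With section as a block, the edgeR p-values rest on how far the differences between regions varied from 1 section to the other. The spread of each gene was moderated with that of all genes tested. DESeq2, which models the spread in another way, called all 4 of them besides *Lalba*. It also called more genes in all, 7251 of 19233, with 4222 higher and 3029 lower. In tumor against edge edgeR called 0 of the 9 members, and 4.8% of all genes (0.447% higher and 4.35% lower), and *Muc1* had an unadjusted p of 0.023. The split of calls over all genes moved with the setting, from 9.32% higher here to 43.5% with DESeq2 and 39.8% with k-means regions. In edge against neural it called 0 of 9, and 0% of all genes, with *Lcn2* and *Muc1* below the threshold before adjustment (edgeR's quasi-likelihood test, unadjusted p = 0.0499 and 0.0439). There DESeq2 called *Lcn2* and 3139 genes in all, and 4761 genes had an unadjusted p below 0.05 by edgeR.

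The 4 genes high in section 2 differed in how they were spread within its tumor. At 5000 UMIs drawn from each spot, *Wfdc18* was seen in 97.8% of tumor spots, *Ltf* in 76.0%, *Slc5a8* in 55.5% and *Csn3* in 23.6% (836 spots, 4 shallower spots left out). The same draw from neural spots of section 1, where each gene had under 4 CPM, gave 1.10%, 1.77%, 0.55% and 1.10% of 1637 spots, with 649 left out. Without the draw the shares in the tumor of section 2 were 99.4%, 94.0%, 90.5% and 54.3%. These shares also depend on the level of each gene, so their order does not by itself give the spread. The 10% of tumor spots richest in each gene held 73.0% of the UMIs of *Csn3* and 40.1% of those of *Ltf*, but 22.5% of those of *Wfdc18* and 23.5% of those of *Slc5a8*. By the part held in the richest spots, *Csn3* was the most patchy of the 4, with up to 393 UMIs in a single spot. *Wfdc18* and *Slc5a8* were the most even.

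**Figure D2:**
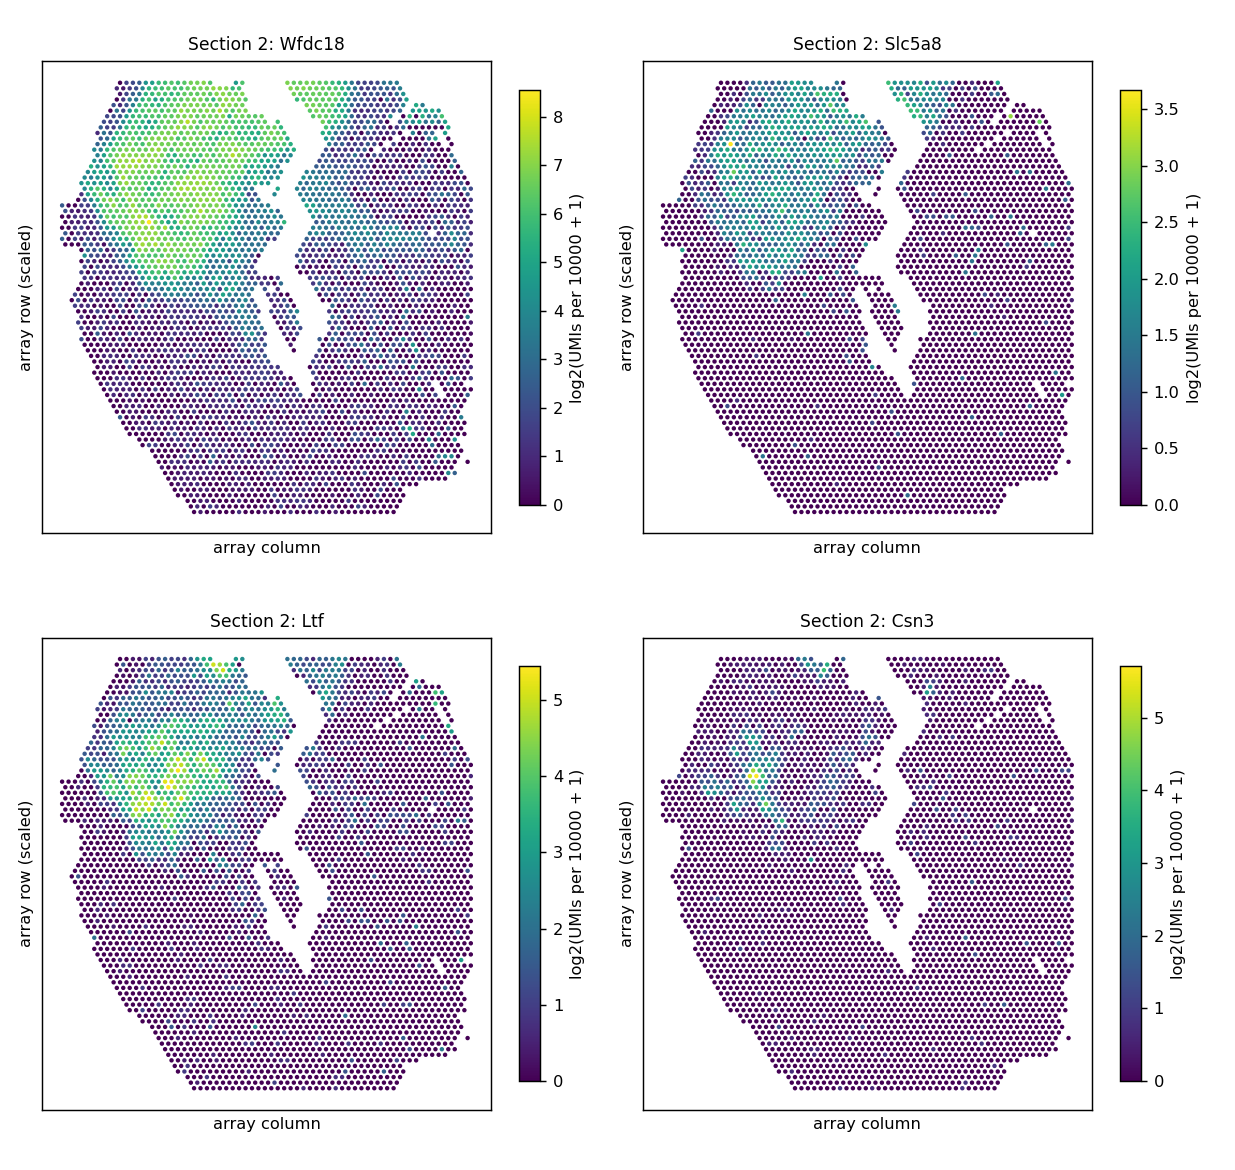
Maps of *Wfdc18*, *Slc5a8*, *Ltf* and *Csn3* over all spots of section 2; each point is a spot at its array position, and the color is log2 of UMIs per 10000 UMIs of the spot plus 1, on a scale of its own in each map. *Wfdc18* and *Slc5a8* fill both pieces of the tumor at the top, while *Csn3* lies in patches of the larger piece, where 10% of tumor spots hold 73.0% of its UMIs.

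The tumor of section 2 lay in 2 pieces on either side of a gap in the tissue, of 764 and 76 spots. *Slc5a8* was alike in them, with 189 and 196 CPM of the piece, and *Wfdc18* had 8344 and 6566. *Ltf* had 715 in the larger piece and 245 in the smaller, and *Csn3* had 126 and 40.8. Epithelial markers were close in the pieces, at 10272 and 9982 CPM. The 85 tumor spots with at least 11 UMIs of *Csn3* also held more *Ltf* than the other 755 tumor spots (1427 against 571 CPM), a ratio of 2.50, while epithelial markers there were 1.06 times and *Wfdc18* 1.18 times the rest. These spots were chosen by *Csn3* and are spots of 1 animal, so the ratios are a description.

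Over the 1270 tumor and edge spots of section 2, on log2 of UMIs per 10000 plus 1, *Wfdc18* went with *Slc5a8* (Pearson r = 0.81) and *Ltf* (0.76), and less with *Csn3* (0.34). *Csn3* went best with *Ltf* (0.51), which was its nearest gene among the 9763 compared. All of these spots share 1 library, and depth moved with the genes too, with r = 0.62 between *Wfdc18* and the log2 total of the spot. In the 840 tumor spots alone the values were 0.71, 0.60, 0.20 and 0.47, each lower than with the edge included. The genes most like *Wfdc18* were *Sorbs2*, *Ehf*, *Tfcp2l1*, *Gja1* and *Nedd9* (0.91 to 0.89), and those most like *Slc5a8* were *Tfcp2l1*, *Sorbs2*, *Wfdc18*, *Nedd9* and *Gja1* (0.82 to 0.79). *Ehf* and *Tfcp2l1* encode transcription factors of epithelia, and *Gja1* encodes a gap junction protein that astrocytes also make. The genes nearest to *Ltf* were *Ehf*, *Wfdc18*, the keratin gene *Krt19*, *Plet1* and *Sorbs2* (0.77 to 0.73). After *Ltf*, those nearest to *Csn3* were *Ttpa*, *Igfbp5*, *Krt19* and *Elf3* (0.42 to 0.37).

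**Figure D3:**
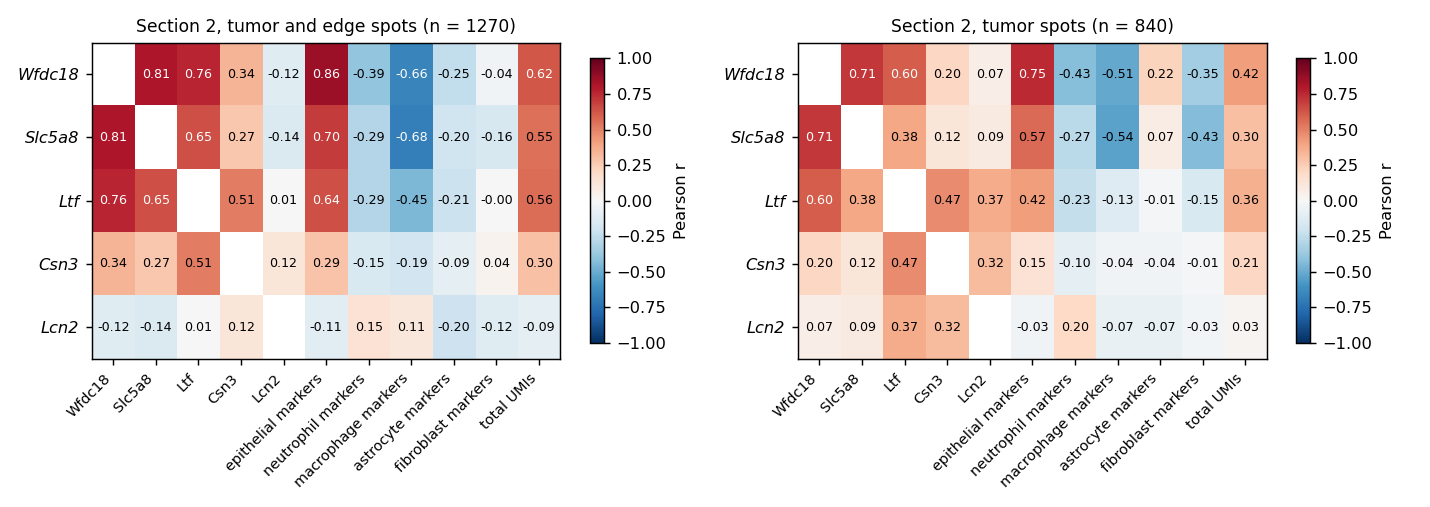
Pearson correlations of 5 members with each other, with summed marker lists and with the log2 total of UMIs, over spots of section 2 (tumor and edge spots on the left, tumor spots alone on the right). *Wfdc18*, *Slc5a8* and *Ltf* share high values with each other and with epithelial markers, *Lcn2* lies between -0.14 and 0.12 with the other members over tumor and edge spots, and its r with *Ltf* is 0.37 in tumor spots alone.

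Since *Ltf* is also a gene of neutrophil granules, it was set beside neutrophil markers. The 10 markers summed to 82.3 CPM in the tumor of section 2, where *Ltf* was 798 CPM, and to 84.7 CPM in the tumor of section 1, where *Ltf* was 3.25 CPM. They were highest at the edge in both sections (118 and 126 CPM), above neural spots (53.1 and 36.6 CPM). *Ngp* and *Camp*, which like *Ltf* encode proteins of secondary granules, were at most 1.83 CPM in every region of both sections. They had 1.07 and 0.345 CPM in the tumor of section 2. At the edges of sections 1 and 2, *Ngp* had 1.71 and 1.47 CPM and *Camp* had 1.52 and 1.83 CPM. With both this low everywhere, whether neutrophils added to the *Ltf* counts was not tested by them. *S100a8* and *S100a9* had 20.7 and 30.2 CPM in the tumor of section 2, above the 13.1 and 7.70 CPM of section 1. *Csf3r*, the receptor gene for a neutrophil growth factor, went the other way, with 19.8 CPM in section 2 and 50.7 CPM in section 1, so the close sums hide members that differ. Over tumor and edge spots of section 2, r with the summed neutrophil markers was -0.29 for *Ltf*, against 0.64 with epithelial markers. Within tumor spots alone these were -0.23 and 0.42. None of the 10 neutrophil markers was at 0 UMIs in any region, and their sums are low, which limits these correlations.

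*Lcn2* was the exception among the members. In section 1 it had 115 CPM in the tumor, 1095 CPM at the edge and 267 CPM in neural spots, and in section 2 it had 1233, 2031 and 740 CPM. The edge was highest in both, at 4.10 times (3.95 to 4.25) and 2.74 times (2.69 to 2.80) the neural level. The tumor lay below neural spots in section 1 (0.431 times) and above them in section 2 (1.66 times). Edge against neural gave a log2 fold change of 1.82 (SE 0.68, adjusted p = 0.20, edgeR's quasi-likelihood test), and tumor against edge gave -1.88 (SE 0.71, adjusted p = 0.18). Neither was called. In tumor against neural the value was -0.063 (SE 0.68), and its sign turned with several settings, RLE scaling and DESeq2 among them.

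**Figure D4:**
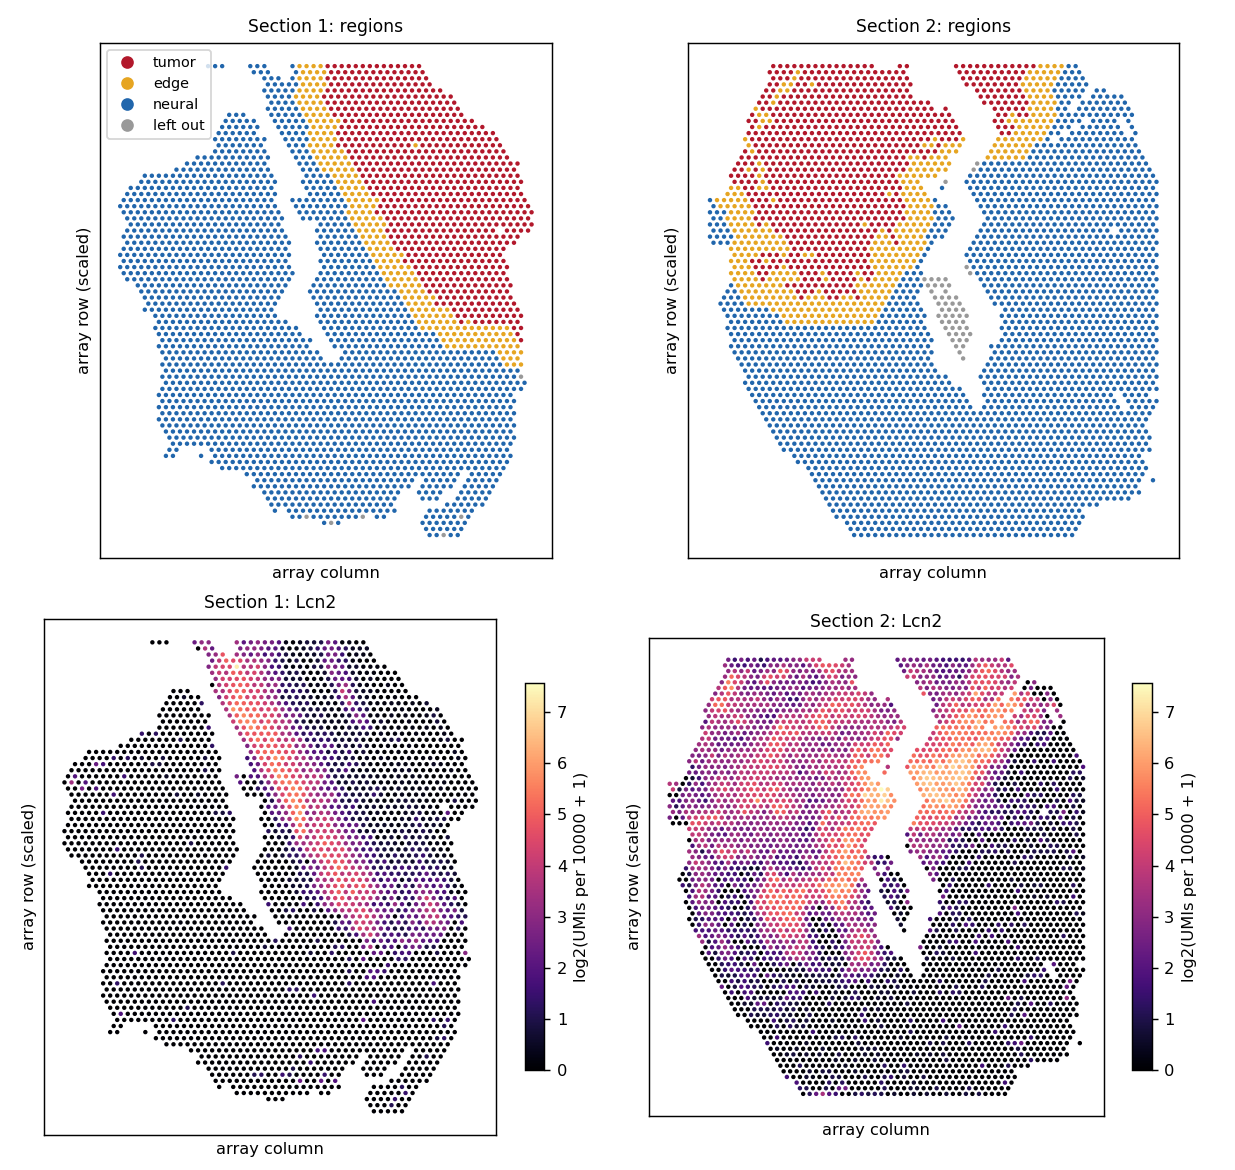
Regions (top) and *Lcn2* (bottom) over the spots of section 1 (left) and section 2 (right); each point is a spot at its array position, and the lower color scale is log2 of UMIs per 10000 UMIs of the spot plus 1, shared by both sections. *Lcn2* forms a band outside the tumor along its border in section 1 and along parts of it, mostly toward the gap in the tissue, in section 2, at 1095 and 2031 CPM at the edge, and is also present through the tumor of section 2.

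By distance from the tumor border, *Lcn2* was highest outside the tumor in both sections, while inside the tumor the sections ran opposite ways. In section 1 it went from 21.0 CPM (here per total of the distance bin, without TMM scaling) in the tumor 11 or more steps from the border to 284 in its outer 2 steps. It then reached 924 at 1 to 2 steps outside, 1682 at 3 to 4 steps and 1809 at 5 to 8 steps, and dropped to 59.2 at 9 to 16 steps and 5.98 at 17 to 32 steps. In section 2 it went from 1253 at 6 to 10 steps inside the tumor down to 895 in its outer 2 steps, then up to 1719, 2731 and 3048 over the same 3 bins outside. It was still 1521 at 9 to 16 steps and fell to 76.1 and 23.2 beyond. The highest bin was thus 5 to 8 steps outside in both sections, and the band was wider in section 2. The summed neutrophil markers peaked at 1 to 2 steps outside in section 1 (157 CPM). In section 2 they peaked at 5 to 8 steps (149 CPM). Astrocyte markers peaked at 5 to 8 steps in section 1 (7299 CPM) and 9 to 16 in section 2 (9464 CPM). Choroid plexus markers peaked at 9 to 16 steps (2112 CPM) and 5 to 8 steps (1548 CPM) in sections 1 and 2. Macrophage markers were highest at 1 to 4 steps in section 1 (7785 and 7786 CPM) and 1 to 2 in section 2 (5601.5 CPM). Endothelial markers peaked at 3 to 4 steps (401 CPM) and 1 to 2 steps (455 CPM). The part of these cell types in the *Lcn2* band was not tested. Neural spots were uneven in *Lcn2*, as the richest 10% of them held 96.1% of the *Lcn2* UMIs of neural spots in section 1 and 77.9% in section 2.

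**Figure D5:**
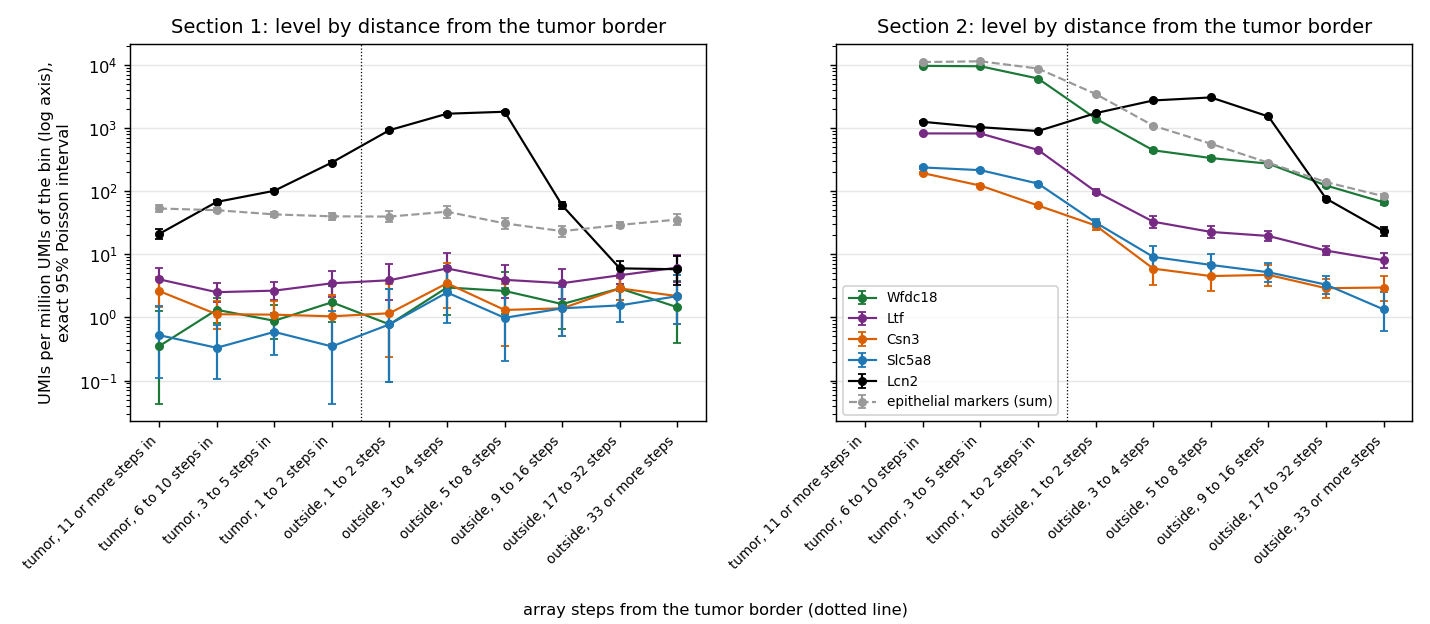
Levels of 5 members and of the summed epithelial markers by distance from the tumor border (dotted line), in array steps, for section 1 (left) and section 2 (right); the vertical axis is CPM of the bin, on a log axis with exact 95% Poisson intervals, and bins under 20 spots are left out. *Lcn2* peaks at 5 to 8 steps outside in both sections (1809 and 3048 CPM), while the other 4 genes fall with distance in section 2 and stay at or below 6.16 CPM in section 1.

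The genes nearest to *Lcn2* were also ranked outside the tumor. Over the spots up to 16 steps outside the tumor, a set chosen after the band had been seen, the nearest genes in section 1 were *Serpina3n*, *Tmsb4x*, *Chil1*, *Vim* and *Tgm1* (r = 0.83 to 0.72, 956 spots). In section 2 they were *Igfbp2*, *C3*, *Serpina3n*, *Ccn5* and *Chil1* (0.75 to 0.58, 1259 spots). *Serpina3n*, a protease inhibitor of reactive glia, and *Chil1*, a chitinase-like gene of reactive astrocytes, were among the first 5 in both, and the complement gene *C3* was ninth in section 1 and second in section 2. *Gfap*, the filament gene of astrocytes, went with *Lcn2* in section 1 (0.42) and against it in section 2 (-0.54). The summed astrocyte markers gave 0.036 and -0.59, macrophage markers 0.65 and 0.28, neutrophil markers 0.39 and 0.062, and the log2 total of the spot 0.44 and 0.23. Epithelial markers gave 0.10 and 0.38, the highest of the cell type lists in section 2, fibroblast markers 0.52 and 0.085, and choroid plexus markers 0.19 and 0.28. Over tumor and edge spots of section 1 *Serpina3n*, *Trf* and the myelin genes *Mbp* and *Mobp* were among the nearest genes (0.88 to 0.84), and in section 2 the nearest were *Igfbp2*, *Chil1*, *Clu*, *Ccn5* and *C3* (0.53 to 0.48). *Ltf* and *Lcn2* had r = 0.0066 over tumor and edge spots of section 2 but 0.37 in tumor spots alone, where *Csn3* and *Lcn2* had 0.32.

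Outside the tumor of section 2 the other 4 genes fell with distance alongside the epithelial markers. *Wfdc18* went from 6073 CPM of the bin in the outer 2 steps of the tumor to 1413 at 1 to 2 steps outside, 272 at 9 to 16 steps and 66.3 at 33 steps or more. For each 100 UMIs of epithelial markers there were 87.1 of *Wfdc18* 6 to 10 steps inside the tumor, 40.9 and 40.7 in the first 4 steps outside, and 96.9, 88.5 and 79.9 in the 3 farthest bins. *Ltf* gave 7.41 per 100 epithelial UMIs deep in the tumor, 2.85 at 1 to 2 steps outside and 9.68 farthest out. That last value rests on 54 UMIs of *Ltf* (8.03 CPM), near the 6.16 CPM of the same bin in section 1. Against the epithelial markers both were thus lowest in the first 4 steps outside the border. Neural spots of section 2 held 81.4 times the *Wfdc18* level of those of section 1 (60.7 to 112), 3.48 times the *Ltf* level, 2.76 times the *Slc5a8* level and 1.82 times the *Csn3* level. Whether these UMIs were made where they were counted was not tested.

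Related genes were taken from lists chosen by function, with earlier results of these data known, so their counts are a description. The counts stand beside 14.4% of all genes called higher and 16.2% called lower in tumor against neural. With lists this short, shares near these are no result about a list. Of 14 other milk and lactation genes tested, 3 were higher in tumor than in neural spots: *B4galt1*, which encodes the enzyme that pairs with alpha-lactalbumin in lactose synthesis (3.16, adjusted p = 0.0048), and the fat globule genes *Mfge8* (2.98, adjusted p = 0.0103) and *Plin2* (2.32, adjusted p = 0.0134), on the log2 scale by edgeR. The 2 that were lower were *Fabp3* (-3.32) and *Thrsp* (-2.62), genes of fatty acid handling. The median over the 14 was 0.081, and over all genes tested -0.13. *B4galt1* had 418 and 246 CPM in the tumors, against 34.6 and 37.0 CPM in neural spots, and *Mfge8* had 233 and 639 CPM against 45.4 and 50.2 CPM, so both were high in section 1 too. *Plin2* was highest at the edge in both sections, at 725 and 292 CPM, against 288 and 175 CPM in the tumors. *Csn1s2a*, a casein gene between *Csn2* and *Csn3*, had 0.621 to 0.995 CPM in all 6 sums. *Csn1s2b*, which also lies between them, was absent from the count tables.

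Of 7 genes of lactogenic signaling, *Stat5a* was higher in tumor than in neural spots, by 2.18 on the log2 scale (SE 0.28, adjusted p = 0.0090, edgeR's quasi-likelihood test), at 54.9 and 38.7 CPM against 9.39 and 11.1 CPM. The other 6 were not called. *Prlr*, the prolactin receptor gene, had 0.97 and 3.97 CPM in the tumors of sections 1 and 2. At the edges it had 0.57 and 0.61 CPM, and in neural spots 4.81 and 4.32 CPM. *Elf5*, a transcription factor gene of alveolar cells, had 1.61 and 2.66 CPM in the tumors. Of 11 genes of involution and the acute phase tested, 4 were higher and none was lower in tumor, beside 14.4% and 16.2% of all genes. The 4 were *Igfbp5* (3.35), *Cd14* (2.61), *Osmr* (1.32) and *Stat3* (1.17). *Igfbp5*, whose product binds insulin-like growth factors in the involuting gland, had 3360.4 CPM in the tumor of section 1 and 950.5 CPM in that of section 2. The median over this list, chosen with earlier results of these data known, was 1.17, beside -0.13 over all genes. Fibroblast and macrophage markers were also high in the tumor sums, with medians of 4.39 and 1.78, and their part in these values was not tested. *Lif*, a cytokine gene of early involution, had 189 CPM in the tumor of section 2 and 4.42 CPM in that of section 1, and its 3.57 (SE 1.37, adjusted p = 0.12, edgeR) was not called.

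Of 8 further genes of the WAP domain family, *Slpi*, a protease inhibitor of secretions, and *Wfdc17* were higher in tumor than in neural spots (4.74 and 1.95), and *Wfdc1* was lower (-2.07), again beside 14.4% and 16.2% of all genes. *Slpi* had 67.5 and 1334 CPM in the tumors of sections 1 and 2, against 5.36 and 27.5 CPM in neural spots. *Wfdc2* had 1026 CPM in the tumor of section 2 and 3.95 CPM in that of section 1, and its 3.72 (SE 1.32, adjusted p = 0.099, edgeR) was not called. *Wfdc12* likewise had 33.7 and 1.86 CPM. *Wfdc17* was highest at the edge in both sections, at 161 and 254 CPM, as *Lcn2* was. None of the 5 other mucin genes was called, and none was above 2.66 CPM. Of the 4 other monocarboxylate carriers, none was called, and *Slc16a3*, which exports lactate, had 35.8 and 206 CPM in the tumors against 8.93 and 12.6 CPM in neural spots (3.26, SE 0.86, adjusted p = 0.051, edgeR).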

How the data were processed

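UMIs were counted in 2 formalin-fixed sections with Visium CytAssist mouse probes. The authors detected tissue and counted with Space Ranger 2.1.1, and the processing notes name mm10. Their deposited tables give whole UMI counts for each gene in each spot, not normalized. The study's own clusters were not used here. Spots with at least 500 UMIs and 10 genes were kept (91 and 18 dropped). An Otsu cut of the share of UMIs from 25 neural genes set the low spots. Connected groups of at least 50 low spots were tumor, other spots within 4 array steps were edge, and 6 and 51 remaining low spots were left out. Sums by section and region held 4593309 to 40210134 UMIs, with TMM factors of 0.851 to 1.15. They were fitted with edgeR 4.0.16 (R 4.3.3; filterByExpr, glmQLFit robust, glmQLFTest) with section as a block, since regions of a section share 1 animal. This leaves 2 residual degrees of freedom. P-values were adjusted by Benjamini-Hochberg over 19233 genes, and a gene was called below 0.05. On simulated data, the fit of tumor against neural (19233 genes) recovered 16% of genes changed 2-fold, 82% at 4-fold and 100% at 8-fold. The changed genes were drawn from those with a mean fitted count above 50 UMIs, and all genes were given the same spread. Recovery was not tested for genes with lower counts. Nor was it tested for genes with SEs as large as the 1.68 of *Csn3* to the 2.28 of *Slc5a8*. *Wfdc18*, with a log2 fold change of 2.84 (SE 2.04), was not called. Intervals are at the 95% level and cover counting error of 1 section. The sections share 3096 spot barcodes of the common array design. Python 3.11.15, numpy 2.4.6, scipy 1.17.1, pandas 2.3.3, scikit-learn 1.9.0 and matplotlib 3.10.9 were used. Members and lists were chosen with earlier results of these data known. Named were all members, the genes of each list with the largest changes or past the test, and the 5 genes nearest to a member across spots, of which 1 is not reported here. *Gfap*, *Elf5*, *Csn1s2a*, *Wfdc12*, *Ngp*, *S100a9*, *Csf3r*, *Gata3*, *Esr1*, *Erbb2*, the levels of *Ehf* and *Tfcp2l1* in section 1 and the rank of *C3* in section 1 were added after their values were seen. Alternatives were DESeq2 1.42.0, other scalings, no filter, no block, other cuts, k-means regions, other edge widths, a higher spot minimum, single sections, other draws of UMIs and rank correlations.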

Additional observations from a re-analysis of the deposited data

How the results depend on the processing

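Counts of genes called in tumor against neural stayed within 1.5 times of 5869 under every alternative. In tumor against edge the 923 calls became 2913 with DESeq2, 1574 with library size as the scaling, 242 and 2095 with the neural cut at 0.5 and 2 times, and 3027 with k-means regions. In edge against neural the 0 calls became 3139 with DESeq2, 934 with RLE factors, 817 with library size, 632 without the replicate block, 1164 with the cut at 0.5 times and 1184 with an edge of 2 steps. The causes were not tested. Of 99 values of single members in tumor against neural, 85 kept their direction and side of the threshold, as did 91 of 96 in tumor against edge and 90 of 96 in edge against neural. *Lalba* in tumor against neural was lost without the replicate block (adjusted p = 0.065), with the cut at 2 times (0.065) and with k-means regions (0.057), and the block changed no other member's call. DESeq2 called *Wfdc18* (adjusted p = 0.042), *Ltf* (0.012), *Csn3* (0.030) and *Slc5a8* (0.047) in tumor against neural and *Lcn2* in edge against neural (0.038). Of all 19233 genes it called 7251 and 3139 in these comparisons. The sign of *Lcn2* in tumor against neural turned, on the log2 scale, to 0.085 with DESeq2, 0.086 with RLE factors, 0.42 without the replicate block, 1.23 with the cut at 2 times, 2.57 with k-means regions and 0.80 with an edge of 6 steps. *Csn2* in tumor against edge turned to -0.11 with library size, -0.059 and -0.44 with the cut at 0.5 and 2 times, -0.67 with k-means and -0.029 with an edge of 6 steps. With the cut at 2 times and with k-means, edge against neural turned to 0.020 and 0.29 for *Csn2* and to 0.023 and 0.11 for *Lalba*. *Slc5a8* in edge against neural turned to -0.13 with k-means, and *Muc1* in tumor against neural to 0.11 with the cut at 2 times. Per spot, an alternative chosen after seeing the data, *Lalba* in tumor against neural was 0.92. Between *Wfdc18* and *Lcn2* r was 0.069 in tumor spots alone, and between *Ltf* and *Lcn2* Spearman's rho was -0.023. With 1 section left out, tumor against neural ran from -0.75 to 5.85 for *Wfdc18*, -0.28 to 5.86 for *Ltf*, -0.39 to 5.33 for *Csn3* and -1.41 to 5.92 for *Slc5a8*, the low value being section 1 in each case. A single section allows no test, so no count could be had without a replicate. With library size as the scaling the median of all genes moved from -0.13 to -0.43 in tumor against neural, and 28.4% of calls were higher in place of 47.0%, against 58.2% with DESeq2. In tumor against edge 9.32% of calls were higher, against 3.68% with library size, 14.8% with RLE factors and 43.5% with DESeq2. Members with under 100 UMIs in a region are limited by depth.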

Other observations

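In section 2, 51 neural-poor spots outside the tumor belonged to no region. Choroid plexus markers made up 224526 CPM there, above the 63.4 to 791 CPM of the 6 regional sums. The spots held 269 CPM of *Wfdc18*, 27.1 of *Ltf*, 399.5 of *Lcn2*, 18.6 of *Muc1* (11 UMIs) and 816 of the summed epithelial markers.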
